A study of Mus musculus with 2 samples.

Results

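The beta-2 leukocyte integrins and their ICAM ligands were followed in bone marrow derived macrophages as 7 genes of the 19871 with a single annotated symbol on the array. They were chosen by name: Itgb2, Itgal, Itgam, Itgax, Itgad, Icam1 and Icam2. The 5 integrin subunits and 2 ligands were read by 8 rows with a single symbol, 2 of them for Itgad, and the row with the highest mean of both arrays gave each gene's main value. RNA came from a sample labelled control and one labelled beta-catenin deficient, each with 1 column of Affymetrix 1.0 ST array values. A column is called an array here, although no label says whether it holds 1 hybridisation or an average. Marrow was from mice aged 8 weeks, and both samples were grown in L929-conditioned medium, which supplies macrophage colony-stimulating factor. The sources used here do not give the strain, the beta-catenin allele, the Cre driver, any agent used for deletion or whether animals were pooled.

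With 1 array per group no difference below has a replicate check, and none was tested. Levels are RMA values on the log2 scale, and each difference is the array labelled deficient minus the control array, so that 1 is a 2-fold difference. A gene was counted only if the higher of its 2 levels was at least 7.28, a floor set at the median over both columns, which 10658 genes passed. Ctnnb1, the beta-catenin gene, was not lower where its loss is labelled (11.4 against 11.3 in control). Axin2, a target switched on by beta-catenin, was lower there (5.97 against 7.61). The second array is therefore called the array labelled deficient, and every direction rests on that label. Of 12 macrophage markers with a row, 11 were at or above the floor on each array, with a median difference of 0.16.

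Beta-2 integrins are the adhesion receptors particular to leukocytes. Each is a pair of 1 shared beta chain, CD18, encoded by Itgb2, and 1 of the alpha chains CD11a (Itgal), CD11b (Itgam), CD11c (Itgax) and CD11d (Itgad). The CD11a pair is LFA-1, which binds ICAM proteins on other cells, and the CD11b pair is Mac-1, also complement receptor CR3, which binds complement-coated particles, fibrinogen and ICAM-1. Inside-out signals through Rap1, talin and kindlin-3 switch the receptors to high affinity, and ligand binding signals back through Src and Syk kinases. In macrophages they serve adhesion, migration and phagocytosis.

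The genes of CD11b, CD11c and CD11d are neighbours in that order on chromosome 7 in the RefSeq annotation of GRCm38.p6, with no other protein-coding gene between them. RefSeq promoter windows, from 250 bases before the transcript start that the table uses to 50 after it, were matched for 3 of the 7 genes, and all 3 are shown. They include the adjacent Itgam and Itgax, which differed unequally between the arrays, and the ligand Icam1. The windows lie at chr7:128062390-128062689 for Itgam, chr7:128129300-128129599 for Itgax and chr9:21015690-21015989 for Icam1, all on the plus strand of GRCm38.p6. Capitals mark matches, on either strand, to 8 short motifs named in the next paragraph.
Itgam: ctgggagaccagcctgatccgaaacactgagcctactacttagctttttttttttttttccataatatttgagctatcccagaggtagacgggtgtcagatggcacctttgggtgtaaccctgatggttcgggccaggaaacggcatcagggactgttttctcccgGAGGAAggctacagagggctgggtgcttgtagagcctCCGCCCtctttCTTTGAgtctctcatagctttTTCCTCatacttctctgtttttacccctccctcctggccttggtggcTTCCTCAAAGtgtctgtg
Itgax: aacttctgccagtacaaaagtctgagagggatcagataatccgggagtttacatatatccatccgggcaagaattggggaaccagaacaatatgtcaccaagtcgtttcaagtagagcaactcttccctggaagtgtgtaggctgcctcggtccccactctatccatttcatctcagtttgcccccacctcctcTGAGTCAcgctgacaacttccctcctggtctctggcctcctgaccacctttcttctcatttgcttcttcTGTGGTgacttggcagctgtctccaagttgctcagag
Icam1: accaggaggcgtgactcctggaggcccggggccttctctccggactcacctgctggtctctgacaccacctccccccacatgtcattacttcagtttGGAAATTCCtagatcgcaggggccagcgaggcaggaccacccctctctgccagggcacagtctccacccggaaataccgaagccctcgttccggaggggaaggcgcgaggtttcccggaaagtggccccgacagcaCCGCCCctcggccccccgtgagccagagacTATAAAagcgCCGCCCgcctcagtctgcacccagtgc

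The Itgam window held the TCF/LEF core CTTTGA, the letters bound by the DNA partners of beta-catenin, 2 times, at 36 bases before and, on the minus strand, 36 bases after that start. It also held 3 matches to the PU.1 core GAGGAA, one of which overlaps the second TCF/LEF match, and 1 to the Sp1 core GGGCGG. Neither CTTTGA nor its variant CTTTGT was in the Itgax or Icam1 window, and CTTTGT was not in that of Itgam. The Itgax window held 1 AP-1 motif TGANTCA and 1 RUNX core TGTGGT. The Icam1 window held 1 match to the NF-kappaB motif GGAAATTCC, 2 Sp1 cores and 1 match to the TATA box TATAAA. The TATAAA match lay 13 bases after the transcript start that the table uses, and 1 of the Sp1 cores 23 bases after it. Of 32851 promoter windows of the same length, 16.0% held CTTTGA, 18.7% CTTTGT, 28.3% GAGGAA, 35.7% GGGCGG, 7.81% TGANTCA, 16.8% TGTGGT, 13.6% TATAAA and 0.317% GGAAATTCC. GC content was 50.3% for Itgam, 50.0% for Itgax and 64.7% for Icam1. These are matches of letters, and binding was not measured.

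The 7 genes did not differ in 1 direction. The CD11c gene Itgax was higher by 2.89-fold in the array labelled deficient and the CD11a gene Itgal lower by 2.45-fold, while the shared beta chain Itgb2 and the CD11b gene Itgam lay within 1.5-fold. All 7 passed the floor, but Itgad passed only through the array labelled deficient and Icam2 only through control. At 2-fold, 1 was higher and 1 lower, where 2.96% of all genes at or above the floor were higher and 1.59% lower. At 1.5-fold, 2 were higher (Itgax, Itgad) and 1 lower (Itgal), where the background was 7.54% higher and 8.81% lower. The median difference of the 7 was -0.04, against -0.08 over all genes at or above the floor. Under the other scalings Icam2 was below the floor, and the median of the other 6 was 0.18 after centring, 0.12 after quantile normalization and 0.16 after loess. From Itgal to Itgax the differences spanned 2.82 on the log2 scale.

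**Figure D1:**
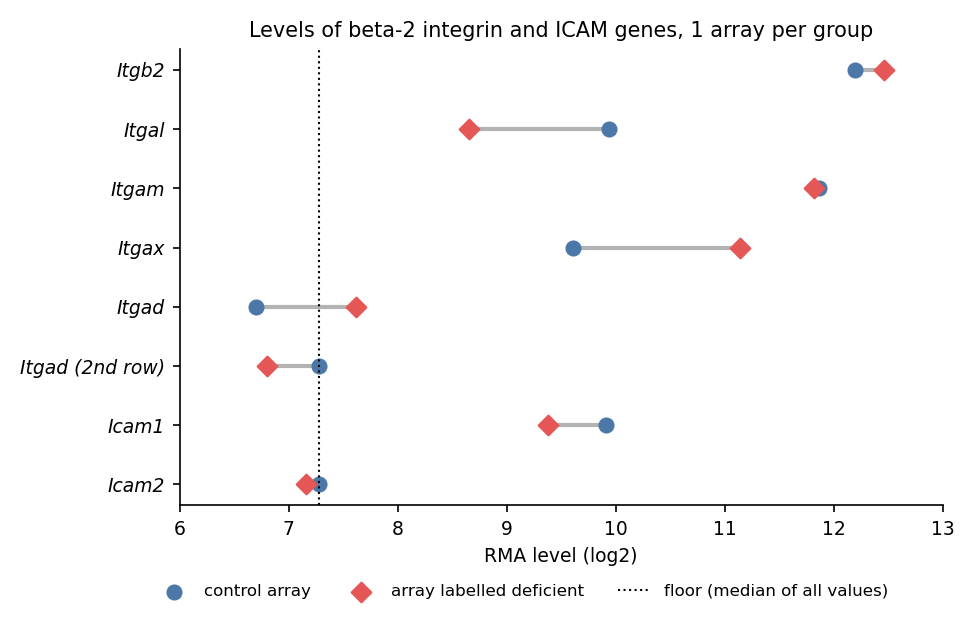
RMA level (log2) of each gene in the control array (circles) and the array labelled deficient (diamonds), with the floor of 7.28 as a dotted line; each symbol is 1 array and there are no error bars. Itgax was at 9.61 in control and 11.1 in the other array, Itgal at 9.94 and 8.65, and the 2 rows of Itgad differ in opposite directions.

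Itgb2, without whose product none of the 4 alpha chains reaches the cell surface, stood at 12.2 in control and at 12.5 where the label is deficient. That is a difference of 0.26 (1.20-fold), and 19.6% of genes at or above the floor had a difference at least as high. Itgam, a marker of myeloid cells in general, stood at 11.9 and 11.8, a difference of -0.04. Both were therefore high and nearly level on these arrays. For Itgam the sign depended on the scale, as it was 0.03 after centring and 0.00 after loess, which removes the curve of the differences against level.

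A further 3 rows are annotated with both Rpl35, a ribosomal protein gene, and Itgam. They stood between 11.9 and 12.0 in control and at 12.4 in the array labelled deficient, with differences of 0.41 to 0.47. They carry more than 1 symbol, so they do not count as readings of Itgam.

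Itgax encodes CD11c, which is used to mark dendritic cells and is also carried by macrophage populations. Its level was 9.61 in control and 11.1 in the array labelled deficient, both well above the floor. The difference of 1.53 was matched or passed by 112 of the 10658 counted genes (1.05%). The median difference was -0.07 over the 1649 genes whose mean level lay within 0.5 of that of Itgax. Against its neighbour Itgam the difference was larger by 1.57, and against Itgb2 by 1.27.

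Itgal encodes the alpha chain of LFA-1, carried by lymphocytes, monocytes and other leukocytes. Its level was 9.94 in control and 8.65 in the array labelled deficient, and neither value was near the floor. Only 58 genes at or above the floor (0.544%) had a difference as low as its -1.29. Genes within 0.5 of its mean level had a median difference of -0.09 (2774 genes). Itgal lies on chromosome 7 as well, but its nearest protein-coding neighbours with a row were Sephs2 (-0.56) and Zfp768 (-0.28), which were also lower by smaller amounts.

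Itgad, the gene of CD11d, gave no single answer. Its main row stood at 6.70 in control, below the floor, and at 7.62 in the array labelled deficient, a difference of 0.92 (1.89-fold). The other row stood at 7.28 and 6.80, a difference of -0.48. The main row is annotated with 1 cDNA accession and no RefSeq transcript, whereas the other row carries that cDNA and 1 RefSeq transcript. Averaged over both rows the difference was 0.22. Its direction in these arrays therefore depends on which row is read, and both rows are dim.

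Icam1, the ligand of LFA-1 and Mac-1 that inflammatory signals induce through NF-kappaB, stood at 9.91 in control and at 9.38 where the label is deficient. The difference of -0.53 (1.45-fold) fell short of 1.5-fold, and 1173 of the 10658 counted genes had one as low. Icam2, a constitutive ligand of LFA-1 best known from endothelium and platelets, stood at 7.28 and 7.16, a difference of -0.13. Its control value exceeded the floor only in the third decimal (7.282 against 7.279). Icam1 thus had the same sign as Itgal, its receptor chain, as did 58.9% of all genes at or above the floor. Icam2 was at the edge of what was counted.

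**Figure D2:**
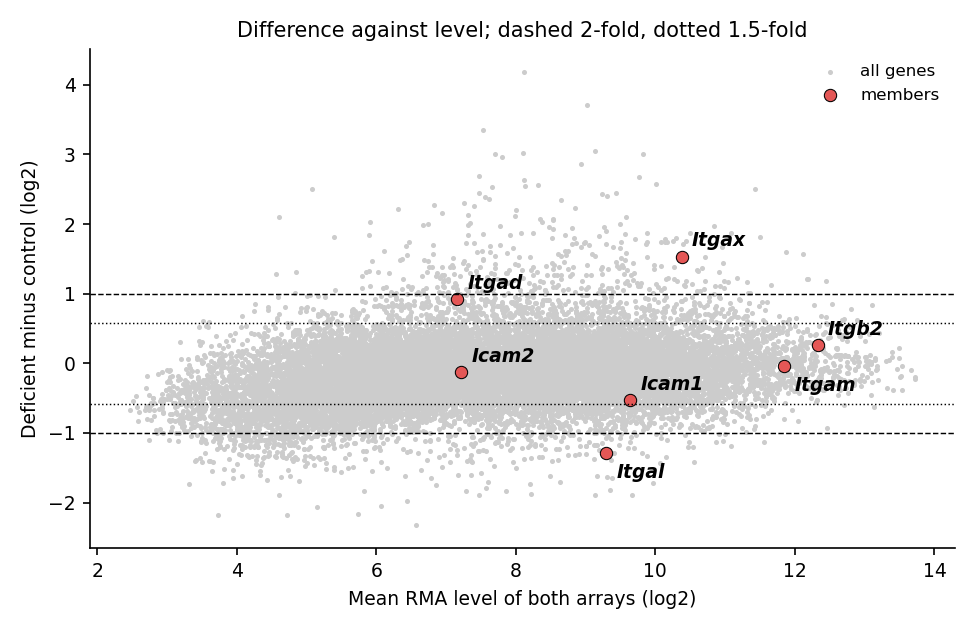
Difference between the arrays (log2) against the mean level of both arrays (log2) for 19871 genes (grey) and the 7 genes described (red), with dashed lines at 2-fold and dotted lines at 1.5-fold. Itgax (1.53) and Itgal (-1.29) lie outside the dashed lines and Itgb2 and Itgam sit near 0 at high level.

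Scaling the arrays differently shifted the 7 genes by little. Over the deposited scale, centring, quantile normalization and loess, Itgax ranged from 1.53 to 1.60, Itgal from -1.29 to -1.20, Icam1 from -0.53 to -0.45 and Itgb2 from 0.26 to 0.34. The main row of Itgad ranged from 0.92 to 1.05 and so passed 2-fold under quantile normalization and loess. Icam2 ranged from -0.13 to -0.00. The direction of the arrays' overall balance was less steady. Higher genes made up 65.1% of those past 2-fold and 46.1% of those past 1.5-fold as deposited, 73.1% and 58.7% after centring, 73.0% and 56.2% after quantile normalization, and 76.6% and 61.9% after loess. Without a floor the balance turned, with 43.1% higher at 2-fold and 27.7% at 1.5-fold over 19871 genes. Over all genes without a floor the median difference was -0.15 as deposited and -0.00 after quantile normalization.

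**Figure D3:**
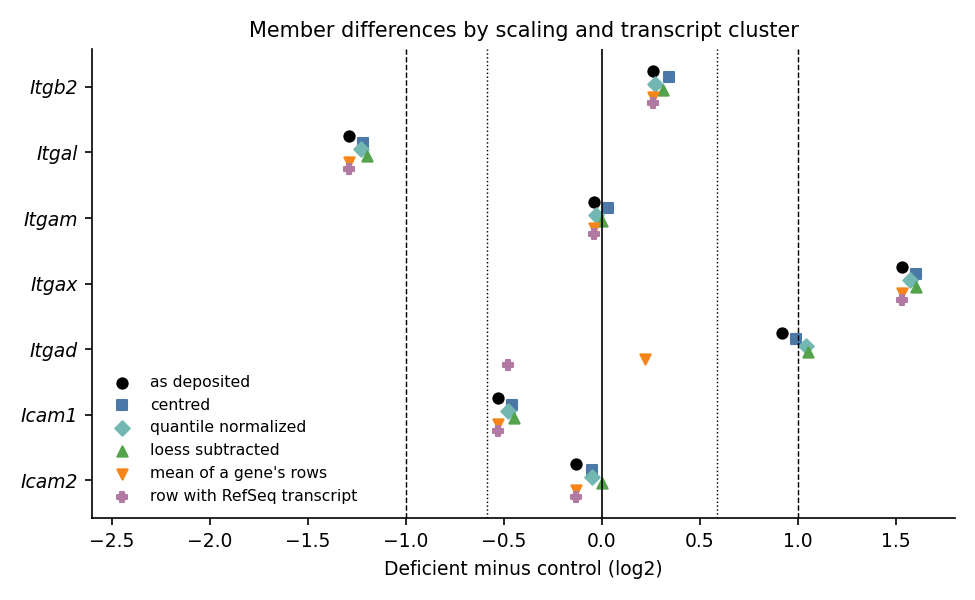
Difference between the arrays (log2) of each gene as deposited, under 3 other scalings and with 2 other ways of taking a gene's row; dashed lines are 2-fold and dotted lines 1.5-fold. The scalings differ by little for each gene, while the Itgad difference goes from 0.92 to 0.22 and -0.48 with the choice of row.

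Other ligands of the family were mostly dim. Of 13 listed, 12 had a row and 4 were at or above the floor, with a median of 0.10. By at least 1.5-fold, 1 of the 4 was higher and 0 lower (25.0% and 0%, where the background was 7.54% and 8.81%). Vcam1, an adhesion molecule of activated endothelium that CD11d can bind, was the highest, at 8.67 in control and 9.68 in the array labelled deficient (1.01). Among the 4 at or above the floor, F11r, the junctional adhesion molecule JAM-A that binds LFA-1, was the lowest, at 7.58 and 7.54 (-0.04). Icam4 (6.46 and 6.27) and Icam5 (6.85 and 6.72), which follow Icam1 on chromosome 9, were below the floor on both arrays. Both are named as the other ICAM genes near Icam1, Icam5 after its value was seen.

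Genes of inside-out control, which switch the integrins on or restrain them, lay mostly below 0. Of 20 such genes, 18 were at or above the floor, 0 higher and 2 lower by at least 1.5-fold (11.1%, near the background of 8.81%), with a median of -0.13. Of the 18, 14 (77.8%) had a negative difference, where 58.9% of all genes at or above the floor did. These shares were 61.1% and 50.1% after centring, 77.8% and 52.5% after quantile normalization, and 66.7% and 48.0% after loess. The lowest was Apbb1ip, whose product RIAM is a Rap1 effector that recruits talin, at 11.3 in control and 10.5 in the array labelled deficient (-0.80). Next was Fermt3, the gene of kindlin-3, which binds the beta-2 tail, at 10.3 in the array labelled deficient, a difference of -0.69 (named after its value was seen). Dok1, an adaptor that competes for integrin tails, was the highest at 8.71 and 9.02 (0.31). Talin itself, Tln1 (-0.03), and the GTPase genes Rap1a (0.02) and Rap1b (-0.06) were nearly level, named after their values were seen.

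Genes of signalling from the bound receptor were described in the same way. Of 22 listed, 20 had a row, and all 20 were at or above the floor, 0 higher and 2 lower by at least 1.5-fold, with a median of -0.17. The 2 lower ones are 10.0% of the list, near the background of 8.81%. A negative difference was seen in 16 of the 20 (80.0%), where 58.9% of all genes at or above the floor had one. These shares were 65.0% and 50.1% after centring, 70.0% and 52.5% after quantile normalization, and 65.0% and 48.0% after loess. The lowest were Pik3cg, the PI3-kinase gamma subunit, at 11.2 in control and 10.3 in the array labelled deficient (-0.93), and the actin regulator Was, at 10.4 and 9.51 (-0.84, named after its value was seen). Rac2, a haematopoietic regulator of the actin cytoskeleton, was the highest at 11.9 and 12.4 (0.49). The kinase gene Syk differed by 0.22, named after its value was seen.

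Transcription factors known to act on these genes had differences of both signs, but those past 1.5-fold were all lower. All 13 with a row, of 15 listed, were at or above the floor, 7 above 0 and 6 below, with a median of 0.01. By at least 1.5-fold, 0 were higher and 3 lower (0% and 23.1%, where the background was 7.54% and 8.81%). Those 3 were Cebpa (9.67 to 8.96, -0.71), Runx3 (-0.66) and Sp3 (-0.63), the last 2 named after their values were seen. After centring or loess 1 of the 13 was at least 1.5-fold lower. Irf1, an interferon-induced factor, was the highest (9.16 and 9.55, 0.39). Spi1, the gene of PU.1, which drives the CD11b and CD18 genes, stood at 12.3 and 12.1 (-0.17, named after its value was seen).

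**Figure D4:**
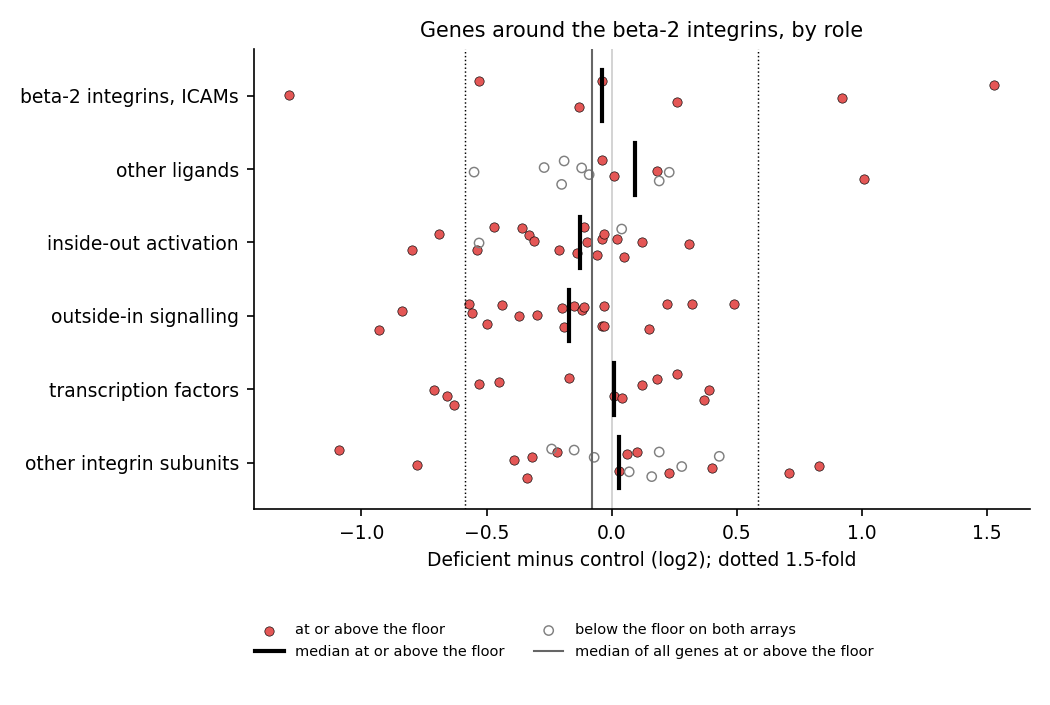
Difference between the arrays (log2) of each gene by role; filled points are at or above the floor of 7.28 on at least 1 array, open points below it on both, black bars are medians of the filled points and the grey line the median of all genes at or above the floor (-0.08). The 7 genes of the top row span -1.29 to 1.53, and the signalling rows lie between -0.93 and 0.49.

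Integrin subunits outside the beta-2 family were compared as the nearest relatives. All 21 had a row and 13 were at or above the floor, with a median of 0.03. By at least 1.5-fold, 2 were higher and 2 lower (15.4% each, where the background was 7.54% higher and 8.81% lower). Of the 2 higher ones, Itga1 (7.15 in control) passed only through the array labelled deficient (7.86), named after its value was seen. Itga8, a partner of beta-1 in mesenchymal cells, was the lowest, from 7.43 in control to 6.34 in the array labelled deficient (-1.09), below the floor. Itga2b, the platelet subunit, was the highest at 7.32 and 8.15 (0.83). The beta chains Itgb1 (-0.22), Itgb3 (0.03), Itgb5 (0.40) and Itgb7 (0.23) lay within 1.5-fold as Itgb2 did, named after their values were seen.

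Markers of other cells that carry these integrins differed between the same arrays, and their part in the values above was not tested. In bulk RNA, fewer cells of a type and less RNA per cell cannot be told apart. Of 9 monocyte markers, 7 had a row, and all 7 were at or above the floor on at least 1 array. By at least 1.5-fold, 4 were higher and 1 lower (57.1% and 14.3%), where the background was 7.54% and 8.81%. The same background holds for the marker counts that follow. The highest was Chil3 (2.20, from 6.90 in control), which passed only through the array labelled deficient. The lowest was Treml4 (-0.77), a marker of the monocyte subset low in Ly6C. The monocyte list's summed level, on the linear scale, was 2595 in control and 5791 in the array labelled deficient. All 12 neutrophil markers were at or above the floor on at least 1 array, 9 higher and 0 lower by at least 1.5-fold, from Camp (-0.43) to Retnlg (2.57), with a summed level of 6372 in control and 14586 in the array labelled deficient.

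Dendritic cells carry CD11c, the product of Itgax, and lymphocytes carry LFA-1, whose alpha chain is that of Itgal. Of 11 dendritic markers, 4 were at or above the floor, 2 higher and 1 lower by at least 1.5-fold, from Ccr7 (-0.63) to Kmo (1.30), and the summed level was 1610 in control and 1811 in the array labelled deficient. The whole rise in that sum came from Cd24a, the brightest of the 11 (9.08 and 9.57, named after its value was seen). Without Cd24a the sum was slightly lower in the array labelled deficient. Both higher ones, Kmo (6.23 in control) and Cd209a (6.56), passed only through the array labelled deficient. Flt3, Zbtb46, Clec9a, Xcr1, Batf3, Dpp4 and Siglech were below the floor on both arrays, 6 of these 7 with a negative difference, down to -0.90 for Clec9a. Over all 11 the median was -0.24, where it was -0.15 over all genes without a floor. Of 14 lymphocyte markers with a row, 2 reached the floor, Cd79b (0.32) and Nkg7 (1.09), and the summed level was 1546 and 1636. Those 2 rose by more than the sum did, so the other 12 together summed lower in the array labelled deficient. Nkg7 (6.43 in control) reached it only in the array labelled deficient. The other 12 were below the floor on both arrays. Over all 14 the median was -0.52, with 10 lower and 4 higher, where the median over all genes without a floor was -0.15. The T cell genes Cd3g (-1.14), Cd3d (-0.75) and Cd3e (-0.51) were among the lower ones. The B cell genes Ms4a1 (1.08) and Cd79a (0.82), also below the floor and named after their values were seen, were among the higher ones. Cd3e was just under the floor in control, at 7.26. The part of lymphocytes in the Itgal values was not tested.

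Endothelium and platelets carry ICAM-2, and activated endothelium and stromal cells carry VCAM-1. Of 11 endothelial markers, 6 were at or above the floor, 1 at least 1.5-fold higher, Emcn (2.00), and 1 lower, Flt1 (-0.67), 16.7% each. Emcn (5.74 in control) passed only through the array labelled deficient, and Flt1 (6.62 in that array) only through control. The summed level was 1399 in control and 1816 in the array labelled deficient. The 4 platelet markers with a row, of 8 listed, were all at or above the floor, 3 higher and 0 lower by at least 1.5-fold, from Pf4 (0.46) to Ppbp (2.51), with a summed level of 5075 and 12174. Stromal markers were at or above the floor for 9 of 11, with 8 higher and 0 lower by at least 1.5-fold (88.9% and 0%). They ranged from Thy1 (0.18) to Cxcl12 (2.87), with a summed level of 4258 and 10974. Of the 8 higher ones, 1 passed only through the array labelled deficient. Of 8 mast cell and basophil markers, 4 were at or above the floor, 3 higher and 0 lower by at least 1.5-fold, from Hdc (0.02) to Prss34 (2.31), with a summed level of 713 and 1242. All 3 higher ones passed only through the array labelled deficient, and over all 8 the median was 0.06. Among macrophage markers at or above the floor Lyz2 (-0.38) was the lowest and Fcgr1 (0.78) the highest, Marco was below it on both arrays (-0.58), and the list's summed level was 47595 and 49142.

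**Figure D5:**
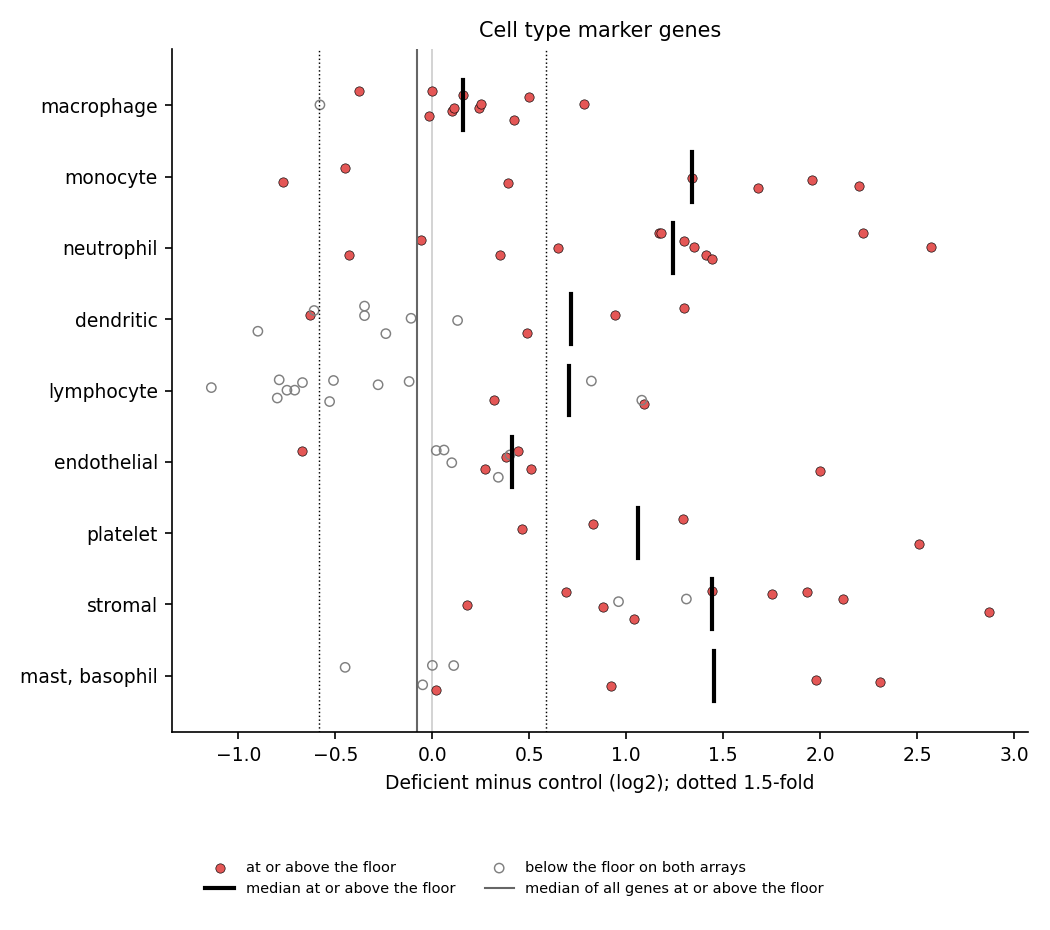
Difference between the arrays (log2) of each marker gene by cell type; filled points are at or above the floor of 7.28 on at least 1 array, open points below it on both, black bars are medians of the filled points and the grey line the median of all genes at or above the floor (-0.08). Monocyte, neutrophil, platelet and stromal medians lie between 1.06 and 1.44, and the macrophage median at 0.16. In the dendritic, lymphocyte, endothelial and mast cell rows, every filled point at least 1.5-fold higher passed the floor only through the array labelled deficient. In the monocyte, neutrophil, platelet and stromal rows, 1 such point each did.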

How the data were processed

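The deposited table held 25917 rows and 1 log2 value per row and array, made by the authors with RMA, per the submitters' processing notes; the sources used here do not give its settings, version or any row filter. RMA corrects background, normalizes between arrays and summarises probes, so levels carry no detection call, and the number of arrays limits the precision. As deposited, the 2 columns still did not share 1 distribution. Their medians were 7.31 in control and 7.24 in the array labelled deficient, and the median difference over all rows was -0.17. The log2 scale was read from the range, 2.12 to 14.1. GEO's platform annotation gave 1 symbol for 21632 rows, several for 1560 and none for 2725. The row with the highest mean was kept for each of 19871 genes. Differences were taken with Python 3.11.15, pandas 2.3.3 and, for loess (fraction 0.3), statsmodels 0.14.6.

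No test was possible with 1 array per group, so genes were counted past 2-fold or 1.5-fold with the higher value at or above the floor, the median of all values. The counting was tested on simulated data. That run used only the 2-fold cut and changes set well past it, so it checks the code and not the counts given here. Named are the 7 members with every row, Ctnnb1 and Axin2, each pathway gene past 2-fold, the highest and lowest gene of each list and the nearest neighbours on the chromosome. Members and lists were chosen with earlier results of these data known. Listed genes without a row of their own were not analysed here. Promoters came from RefSeq, GRCm38.p6. Alternatives were 3 scalings, other floors and other rows for a gene.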

Additional observations from a re-analysis of the deposited data

How the results depend on the processing

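Some results depended on the row read for Itgad, on the floor or on scaling. Under centring Itgam turned to 0.03 and under loess to 0.00. Itgad was 1.04 under quantile normalization and 1.05 under loess, so that 2 of the genes were at least 2-fold higher there, 0.22 as the mean of its rows and -0.48 in the row with a RefSeq transcript, a choice made after seeing the data. With either of those rows, with a floor at the 75th percentile (9.07) and with the floor on the mean, 1 of the genes was at least 1.5-fold higher. Transcription factors at least 1.5-fold lower numbered 1 under centring and loess. Among other integrin subunits, a floor at the 75th percentile left 0 higher and 1 lower, and the floor on the mean 1 lower. Stricter floors test fewer genes, and the cause of the other changes was not tested. The other 130 recomputed values kept their sign and their side of both folds, or their count within 1.5 times. Levels near the floor (Itgad, Icam2) are dim, and with 1 array per group no spread between cultures is known. No paired analysis was possible because each group had 1 array.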

Other observations

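The genes that flank the family gave values of their own. Next to the chromosome 7 cluster, Cox6a2, a muscle-type subunit of cytochrome oxidase that follows Itgad, was at 8.23 in control and 7.69 in the array labelled deficient (-0.54). Trim72, which precedes Itgam, was below the floor on both arrays (5.92 and 6.20). Fam207a (0.26) and Pttg1ip (0.19), on either side of Itgb2 on chromosome 10, had differences close to the 0.26 of Itgb2. Mrpl4, a mitochondrial ribosomal protein gene before Icam1 on chromosome 9, differed by 0.05. Ern1, the gene of the unfolded protein sensor IRE1, which follows Icam2 on chromosome 11, stood at 9.88 and 9.41 (-0.47), and Prr29 before it at 7.48 and 7.26 (-0.22).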
